A study of Zea mays with 46 samples.

Results

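Phenylalanine ammonia-lyase removes ammonia from phenylalanine to give cinnamate. That step opens the phenylpropanoid pathway, which supplies lignin, hydroxycinnamates, and the coumaroyl units that chalcone synthase turns into flavonoids. In maize the enzyme is encoded by a family of gene copies. The family was followed here as the 10 rows of a maize gene count table that are listed as phenylalanine ammonia-lyase, out of 39005 gene rows, and all 10 were present in the table. Its rows are named by gene identifier only, and the sources used here do not say how the copies differ in sequence or in catalytic role. P1, the MYB regulator that the series is about, activates flavonoid genes. It is known for maysin-type flavones in silk and for red phlobaphenes in pericarp.

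The series holds 46 samples, and its RNA-seq part has 27 libraries in 9 groups of 3. The 5 silk groups were taken at 0 days after pollination, with 2 to 5 cm of silk exposed: the inbreds B73 and A632, their F1 hybrid (B73 x A632), and plants carrying the P1-rr or the P1-ww allele, both labelled with the inbred A619. Pericarp and cob are red with P1-rr and colourless with P1-ww. The 2 pericarp groups, P1-rr and P1-ww, came from ears at 14 days after pollination. Each silk or pericarp replicate pooled 2 field plants. The 2 protoplast groups were leaf cells freed of their walls, made from 12 F1 seedlings (12 days old, grown in the dark) per replicate. They were electroporated with a P1-rr construct behind the strong viral 35S promoter (35S:P1) or with an empty vector, and were collected about 18 h later. The 35S promoter is active in most plant cells, so 35S:P1 places P1 in cells where the tissue pattern of its own promoter does not apply. The identifiers of the count table could not be paired with gene names here, so neither the P1 transcript nor tissue markers were checked.

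Library totals ran from 18910941 to 54466743 counts, with pericarp at 18910941 to 25175345. Replicates of every group differed beyond sampling noise, and that spread, rather than depth, limits most values. Levels are given in CPM, the counts of a gene scaled to the total of its library, as mean ± SD of 3 libraries. CPM is not divided by gene length, so a copy is compared with itself across groups and copies are not ranked by level. Reads of 50 nt were aligned to the B73 genome. Copies that share stretches of sequence are therefore uncertain, and a copy that differs from B73 in A632 or A619 can read low. In whole tissue, fewer expressing cells and less RNA per cell cannot be told apart.

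Of the 10 copies, 8 were measured in all 9 groups, and each of them varied across silk, pericarp and protoplasts. The ratio of the highest to the lowest group mean was 5.80 for Zm00001d017274, the copy with the most counts. It was 15.1 for both Zm00001d017275 and Zm00001d051163 and 105 for Zm00001d051161. It reached 434 for Zm00001d017279, 546 for Zm00001d003016, 763 for Zm00001d017276 and 876 for Zm00001d003015. In P1-ww silk, where both were lowest, Zm00001d017276 had 19 counts over 3 libraries and Zm00001d003015 had 39. Of these 8 copies, 6 had their lowest group mean in P1-ww silk, while Zm00001d003016 was lowest in empty-vector protoplasts and Zm00001d051161 in B73 silk. The highest group mean was in 35S:P1 protoplasts for 6 of the 8 and in F1 silk for Zm00001d003016 and Zm00001d017274. Ratios and orders between tissues depend on the scaling. With library sizes also scaled by edgeR's TMM factors, Zm00001d017274 stood at 2652 in 35S:P1 protoplasts and 2582 in F1 silk. On that scale Zm00001d003016 stood at 3.09 in empty-vector protoplasts and 1116 in F1 silk.

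**Figure D1:**
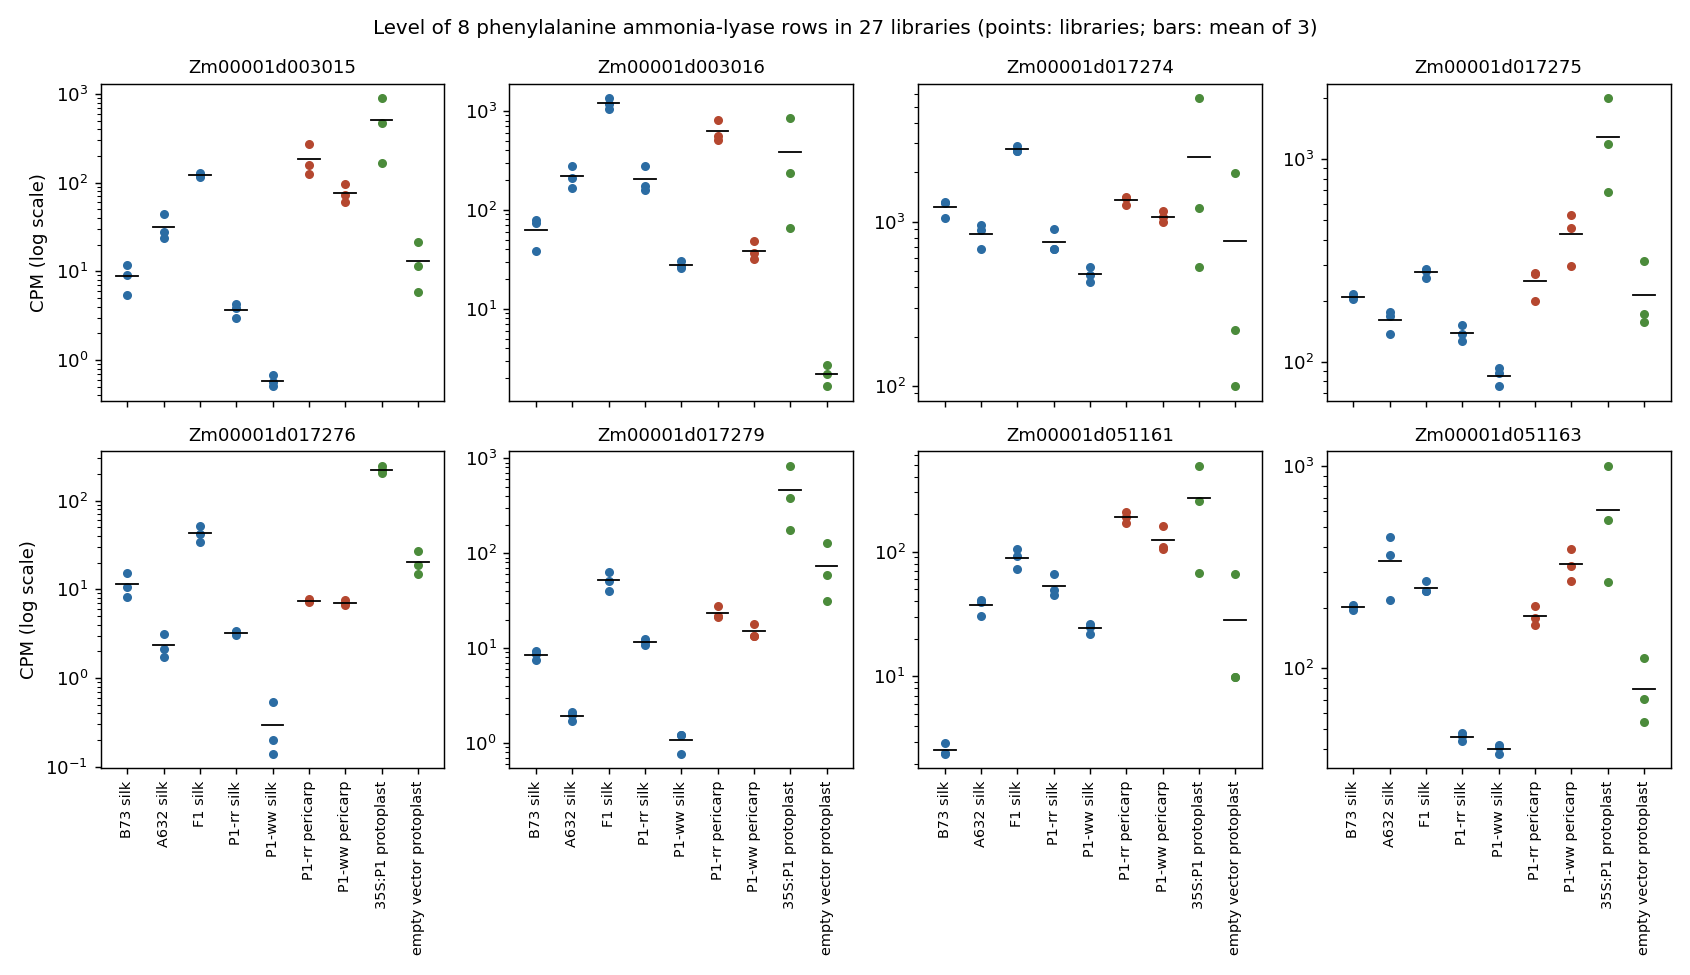
Level of 8 phenylalanine ammonia-lyase copies in CPM (log axis, a separate scale in each panel) for each of the 9 groups. Points are libraries, coloured by tissue, and bars are means of 3 libraries. Zm00001d003015 and Zm00001d017276 stand lowest in P1-ww silk, and Zm00001d003016 stands at 2.19 CPM in empty-vector protoplasts and at 1197 CPM in F1 silk.

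Neighbouring groups in these orders often overlapped. For Zm00001d003015 the order ran from 35S:P1 protoplasts through P1-rr pericarp, F1 silk, P1-ww pericarp, A632 silk, empty-vector protoplasts, B73 silk and P1-rr silk to P1-ww silk. The libraries overlapped between the first and the second group, the second and the third, and between empty-vector protoplasts and B73 silk, and not between the other neighbours. For Zm00001d003016 F1 silk stood above all other groups, followed by P1-rr pericarp, 35S:P1 protoplasts, A632 silk and P1-rr silk, each overlapping the next. B73 silk and P1-ww pericarp overlapped below them, and P1-ww silk and empty-vector protoplasts each stood apart at the bottom. For Zm00001d017279 the 7 field-tissue groups did not overlap their neighbours and ran downward from F1 silk through P1-rr pericarp, P1-ww pericarp, P1-rr silk, B73 silk and A632 silk to P1-ww silk, while empty-vector protoplasts overlapped F1 silk.

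The remaining 2 copies gave few counts. Zm00001d033286 had 401 counts over the 3 35S:P1 protoplast libraries and 23 over the 3 empty-vector libraries. In silk it had 3 counts over the B73 libraries, all in replicate 2, and 2 over the F1 libraries. It had 0 counts in A632, P1-rr and P1-ww silk and in both pericarp groups, where a count of 0 allows up to 0.0304 CPM in A632 silk, 0.0382 in P1-rr silk, 0.0449 in P1-ww silk, 0.0445 in P1-rr pericarp and 0.0493 in P1-ww pericarp (3 counts over the group, counting error only). Zm00001d051164 had at most 4 counts in any library. Those counts came from B73, F1 and A632 silk and 35S:P1 protoplasts. It passed the filter on low counts in no comparison. Zm00001d033286 passed it only in protoplasts, through its 35S:P1 libraries, so 9 copies were tested there and 8 elsewhere.

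The first comparison asked how the family differs between silks with the P1-rr and the P1-ww allele. Of the 8 copies tested, 7 were higher in P1-rr silk and 0 lower at an adjusted p under 0.05 (edgeR quasi-likelihood, adjusted by Benjamini-Hochberg over all genes), where 5.87% of all genes tested were higher and 6.57% lower. The DESeq2 Wald test and an unadjusted p under 0.05 also gave 0 lower. The median log2 change was 1.83 over the 8 copies and 0.00 over all genes.

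Zm00001d017276 stood at 3.40, 3.08 and 3.26 CPM in the P1-rr libraries and at 0.202, 0.139 and 0.537 in the P1-ww libraries. The groups lay far apart, and P1-ww replicate 3 was the highest of its group. The P1-ww libraries held 5, 3 and 11 counts of this copy, so its changes relative to P1-ww silk rest on few counts. The log2 change was 3.42 ± 0.41 SE (edgeR adjusted p = 0.00017). It was 4.16 without P1-ww replicate 3.

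Zm00001d017279 stood at 10.7, 12.5 and 11.7 CPM with P1-rr and at 0.767, 1.21 and 1.22 CPM with P1-ww. The libraries were tight within each group, and the log2 change of 3.39 ± 0.21 SE had the smallest p of the family in silk (edgeR adjusted p = 2.78e-07). Zm00001d003016 stood at 158, 279 and 173 CPM with P1-rr and at 27.1, 30.2 and 25.8 CPM with P1-ww. P1-rr replicate 2 was the highest, and the lowest P1-rr library was still above every P1-ww library (log2 change 2.81 ± 0.30 SE, edgeR adjusted p = 4.29e-05). Zm00001d003015 was low in both stocks, at 3.01, 4.31 and 3.84 CPM with P1-rr and 0.565, 0.510 and 0.683 CPM with P1-ww. It rose 6.04-fold (log2 change 2.60 ± 0.40 SE, edgeR adjusted p = 0.00105).

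The other 3 called copies changed less. Zm00001d051161 rose by a log2 of 1.07, from 24.3 ± 2.39 to 53.4 ± 11.8 CPM. Zm00001d017275 rose by a log2 of 0.63, from 85.6 ± 8.72 to 138 ± 12.7 CPM. Zm00001d017274 rose by a log2 of 0.60, from 478 ± 48.9 to 757 ± 131 CPM (edgeR adjusted p = 0.0235). Its 680, 909 and 683 CPM with P1-rr all lay above its 471, 530 and 433 CPM with P1-ww, but the call was lost without P1-rr replicate 2 (adjusted p 0.12) and without replicate 1 or 3 of P1-ww (0.0698 and 0.0852). Zm00001d051163 stood at 46.0 ± 2.11 CPM with P1-rr and 40.1 ± 2.13 CPM with P1-ww, a log2 difference of 0.13 ± 0.19 SE that did not pass the test (edgeR adjusted p = 0.719). The silk libraries of all 8 copies, called or not, did not overlap between the alleles. The share of all genes without overlap was not computed for silk, so this adds no support.

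In pericarp the same pair of alleles split the family. Of the 8 copies tested, 2 were higher with P1-rr and 2 lower, where 5.7% of all genes tested were higher and 7.25% lower. The median log2 change was 0.40 over the 8 copies and 0.02 over all genes.

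Zm00001d003016 stood at 808, 562 and 503 CPM with P1-rr and at 31.6, 36.4 and 48.3 CPM with P1-ww. Every P1-rr library was far above every P1-ww library. The copy rose 15.5-fold (log2 change 3.95 ± 0.28 SE, edgeR adjusted p = 0.000418), and it was higher by the same test in each fit without 1 of the libraries. Zm00001d003015 stood at 272, 156 and 125 CPM with P1-rr and at 61.0, 72.0 and 95.7 CPM with P1-ww. The groups did not overlap, and P1-rr replicate 1 stood well above its partners (log2 change 1.22 ± 0.33 SE, edgeR adjusted p = 0.0464). The call was lost without P1-rr replicate 2 (adjusted p 0.0855) and without replicate 1, 2 or 3 of P1-ww (0.142, 0.124 and 0.0851).

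Lower with P1-rr were Zm00001d051163 and Zm00001d017275. Zm00001d051163 stood at 165, 177 and 203 CPM with P1-rr and at 269.7, 392 and 322 CPM with P1-ww, with no overlap (log2 change -0.92 ± 0.16 SE, edgeR adjusted p = 0.0128). Its adjusted p rose to 0.0541 without P1-rr replicate 2 and to 0.0506 without the third P1-ww replicate. Zm00001d017275 stood at 200.4, 274 and 272 CPM with P1-rr and at 296, 455 and 532 CPM with P1-ww. Its highest P1-rr library lay just under its lowest P1-ww library (log2 change -0.85 ± 0.22 SE, edgeR adjusted p = 0.0436). Without P1-rr replicate 1, 2 or 3 its adjusted p was 0.0753, 0.098 and 0.0929, and without P1-ww replicate 2 or 3 it was 0.107 and 0.134.

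The other 4 copies did not pass the test in pericarp. Zm00001d017279 gave a log2 difference of 0.59 ± 0.20 SE and Zm00001d051161 one of 0.52 ± 0.18 SE. Both lay higher in every P1-rr library than in every P1-ww library, as did Zm00001d017274. In either direction, 7 of the 8 copies did not overlap. The share of all genes without overlap was not computed here, so this adds no support. The adjusted p of Zm00001d051161 was 0.0976, and it was 0.0486 without P1-ww replicate 3. Zm00001d017274 stood at 1362 ± 82.1 CPM with P1-rr and 1075 ± 83.6 CPM with P1-ww (log2 difference 0.27 ± 0.15 SE). Zm00001d017276 stood at 7.43 ± 0.285 CPM with P1-rr and 7.09 ± 0.516 CPM with P1-ww, with overlapping libraries and a log2 difference of -0.00 ± 0.18 SE whose sign changed with the library left out.

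Whether the P1-rr effect was unequal in pericarp and silk was tested directly, in 1 fit over the 12 libraries of these stocks. Of the 8 copies, 4 had a more negative effect in pericarp than in silk and 1 a more positive one, where 5.77% and 6.14% of all genes tested did so. The difference in log2 effect was -3.42 ± 0.42 SE for Zm00001d017276 (edgeR adjusted p = 0.00066, and -4.14 without P1-ww silk replicate 3) and -2.80 ± 0.29 SE for Zm00001d017279 (edgeR adjusted p = 0.000253). These are the copies with the largest rise in silk. It was -1.48 ± 0.26 SE for Zm00001d017275 (edgeR adjusted p = 0.00428) and -1.06 ± 0.18 SE for Zm00001d051163 (edgeR adjusted p = 0.00355), the copies that were lower with P1-rr in pericarp. For Zm00001d003016 it was 1.14 ± 0.34 SE in the other direction (edgeR adjusted p = 0.0487).

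That last call depended on single libraries. The adjusted p of Zm00001d003016 was 0.121 and 0.0996 without P1-rr silk replicates 1 and 3, and 0.0864, 0.109 and 0.0815 without P1-ww silk replicates 1, 2 and 3. It was 0.0697 and 0.0641 without P1-rr pericarp replicates 1 and 2, and 0.103 and 0.0885 without P1-ww pericarp replicates 1 and 2. Zm00001d003015 gave a difference of -1.37 ± 0.50 SE that did not pass the test (edgeR adjusted p = 0.0904), and without P1-rr pericarp replicate 1 it was -1.82 (edgeR adjusted p = 0.00415). Silk and pericarp also differed in age and preparation. These, and season, cannot be told apart from tissue.

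**Figure D2:**
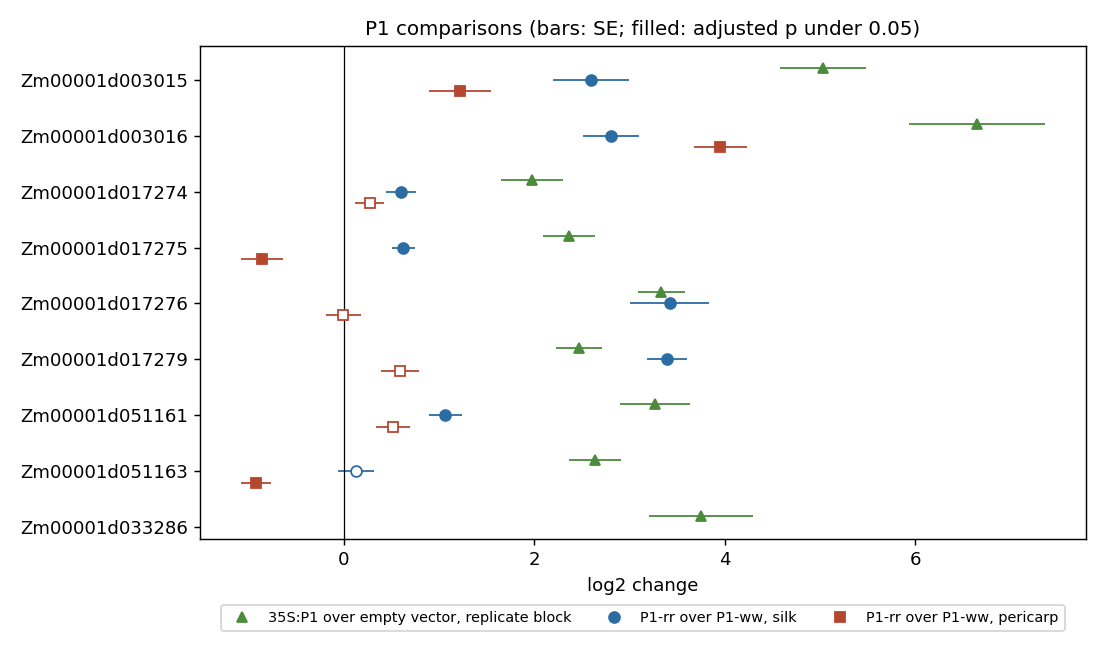
Log2 change of each copy with P1 in 3 settings: 35S:P1 over empty vector in protoplasts with the replicate number as a block (triangles), P1-rr over P1-ww in silk (circles) and P1-rr over P1-ww in pericarp (squares). Bars are SE and filled symbols have an edgeR adjusted p under 0.05. In protoplasts the fit without the block called 0 copies. Zm00001d033286 was tested only through its 35S:P1 libraries, so its symbol adds no support. Zm00001d003016 and Zm00001d003015 lie right of 0 in all 3 settings, while Zm00001d017275 and Zm00001d051163 lie left of 0 in pericarp only.

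With the P1-ww allele, pericarp stood above silk for most copies. Age, season and preparation cannot be told apart from tissue here. In P1-ww plants 7 of the 8 copies were higher in pericarp and 0 lower (0 lower also by DESeq2 and at an unadjusted p under 0.05), where 37.5% of all genes tested were higher and 38% lower. Zm00001d003015 went from 0.586 ± 0.0885 CPM in silk to 76.2 ± 17.8 CPM in pericarp (log2 change 7.05 ± 0.39 SE, edgeR adjusted p = 4.43e-09). Zm00001d017276 rose by a log2 of 4.64 ± 0.33 SE and Zm00001d017279 by 3.86 ± 0.23 SE, from levels near 1 CPM or less in P1-ww silk. Without P1-ww silk replicate 3 the log2 change of Zm00001d017276 was 5.36. Zm00001d051163 rose from 40.1 ± 2.13 to 328 ± 61.1 CPM (log2 change 3.07 ± 0.13 SE). Zm00001d051161, Zm00001d017275 and Zm00001d017274 rose by a log2 of 2.40, 2.35 and 1.21. Zm00001d003016, the copy with the largest P1-rr change in pericarp, stood at 27.7 ± 2.29 CPM in P1-ww silk and 38.8 ± 8.60 CPM in P1-ww pericarp, a log2 difference of 0.52 ± 0.25 SE that did not pass the test (edgeR adjusted p = 0.0689).

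Protoplasts show the family after P1 is supplied for a short time to leaf cells of 1 genotype. In the fit without pairing, 0 of 9 copies tested passed edgeR's adjusted threshold, where 0.139% of all genes were higher and 0% lower. At an unadjusted p under 0.05 edgeR gave 8 copies higher and 0 lower, where 5.57% of all genes were higher. DESeq2 called 8 higher and 0 lower, where 2.29% of all genes were higher. Replicates of equal number in the 2 groups deviated together (r across genes 0.54, 0.66 and 0.82). The labels state no pairing, so the block rests on these data alone. With the number as a block, all 9 tested copies were higher (edgeR adjusted p from 0.000176 to 0.00762), where 5.19% of all genes were higher and 1.08% lower. The median log2 change was 3.27 over the 9 copies and -0.05 over all genes. The counts of 8 and 9 and this median include Zm00001d033286, which passed the filter only through its 35S:P1 libraries. Its inclusion adds no support. Both ends of the p range belong to other copies, Zm00001d017276 and Zm00001d017274.

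Zm00001d003016 stood at 235, 65.9 and 854 CPM with 35S:P1 and at 1.66, 2.72 and 2.2 CPM with the empty vector. The empty-vector libraries were uniformly low, and the 35S:P1 libraries spread over more than a factor of 10. The ratio within each pair of equal number was 142, 24.3 and 388. The log2 change was 6.65 ± 0.72 SE with the block (edgeR adjusted p = 0.000904) and 7.19 ± 1.00 SE without it (edgeR adjusted p = 0.0531).

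Zm00001d003015 stood at 476, 166 and 899 CPM with 35S:P1 and at 5.84, 11.6 and 21.7 CPM with the empty vector. Its ratios were 81.5, 14.3 and 41.5 in the 3 pairs, and it rose by a log2 of 5.03 ± 0.45 SE (edgeR with the block, adjusted p = 0.000347). In the fit without the block its log2 change was 5.11 ± 0.77 SE (edgeR adjusted p = 0.0625). Zm00001d033286, close to 0 in every silk and pericarp library, had 117, 37 and 247 counts with 35S:P1 and 3, 4 and 16 with the empty vector. Its log2 change was 3.75 ± 0.55 SE with the block. It was tested only through its 35S:P1 libraries, so no p is given.

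Zm00001d017276 was the most even copy across 35S:P1 libraries, at 247, 220.0 and 203 CPM against 19, 27.2 and 14.8 CPM with the empty vector. It rose by a log2 of 3.33 ± 0.25 SE (edgeR with the block, adjusted p = 0.000176), and without the block the adjusted p was 0.0545. The block log2 change was 3.27 for Zm00001d051161, 2.64 for Zm00001d051163, 2.47 for Zm00001d017279 and 2.36 for Zm00001d017275. Each of these copies was higher in the 35S:P1 library of every pair.

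Zm00001d017274 was the only tested copy whose groups overlapped. It stood at 1218, 530 and 5670 CPM with 35S:P1 and at 218, 99.8 and 1971 CPM with the empty vector. Empty-vector replicate 3 thus lay 19.8-fold above replicate 2 of the same group and above 35S:P1 replicates 1 and 2. Within pairs the ratio was 5.58, 5.31 and 2.88 (log2 change 1.98 ± 0.32 SE with the block, edgeR adjusted p = 0.00762). In the fit without the block the log2 change was 1.56 ± 1.21 SE and did not pass the test (edgeR adjusted p = 0.9995). The other 8 tested copies did not overlap between groups, as was so in the higher direction for 8.59% of all genes tested. Zm00001d033286, tested only through its 35S:P1 libraries, is among these 8.

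Leaving out libraries changed these counts. Without the block 2 copies were called without 35S:P1 replicate 2 (Zm00001d003016 and Zm00001d003015, edgeR adjusted p = 0.0235 and 0.0379) and 3 without 35S:P1 replicate 3 (these and Zm00001d017276, edgeR adjusted p = 0.0113, 0.0292 and 0.0337). With the block, leaving out pair 1 left 6 called. Zm00001d017274 and Zm00001d017275 were then not called (edgeR adjusted p = 0.164 and 0.0564), nor was Zm00001d033286. Leaving out pair 2 or pair 3 left all 9 called. Zm00001d033286, tested only through its 35S:P1 libraries, is among these 9 and adds no support.

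**Figure D3:**
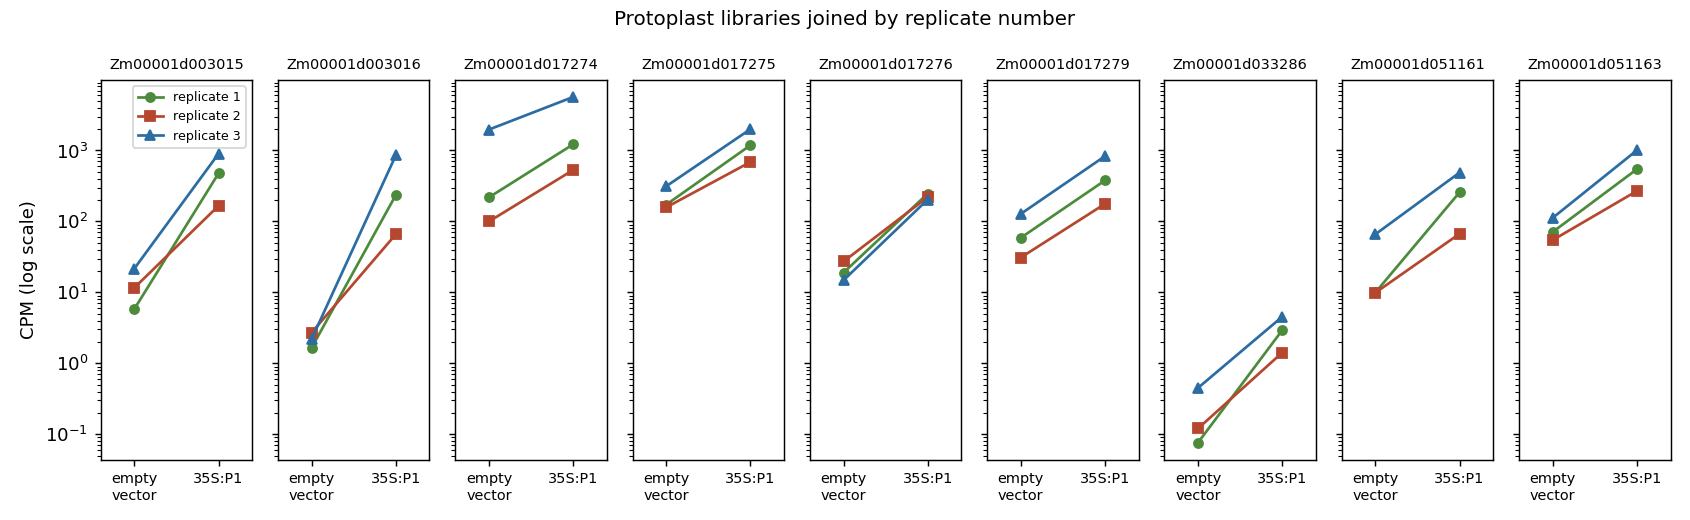
Level of 9 copies in CPM (log axis) in the protoplast libraries, with lines joining the empty-vector and the 35S:P1 library of equal replicate number. Every line rises, by 24.3-fold to 388-fold for Zm00001d003016 and by 2.88-fold to 5.58-fold for Zm00001d017274, whose empty-vector libraries are spread widest.

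The parents of the hybrid differed in both directions in silk. Of the 8 copies, 3 were higher in B73 than in A632 and 4 lower, where 24.8% of all genes tested were higher and 28.2% lower. Zm00001d051161 stood at 2.43, 2.39 and 2.90 CPM in B73 and at 39.4, 41.3 and 30.4 CPM in A632, and the parents did not overlap (log2 change -3.99 ± 0.20 SE, edgeR adjusted p = 2.16e-09). B73 was the lowest of all 9 groups for this copy. Zm00001d003015 was at 8.84 ± 3.21 CPM in B73 silk and at 31.9 ± 11.3 CPM in A632 silk. It was lower in B73 by the test (log2 change -1.98 ± 0.26 SE, edgeR adjusted p = 2.65e-05). Zm00001d003016 was also lower in B73, by a log2 change of -1.91 ± 0.28 SE, and Zm00001d051163 by one of -0.92 ± 0.19 SE.

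Higher in B73 were Zm00001d017276 and Zm00001d017279. Zm00001d017276 stood at 8.15, 15.4 and 10.5 CPM in B73 and at 1.73, 2.14 and 3.13 CPM in A632, without overlap (log2 change 2.12 ± 0.29 SE, edgeR adjusted p = 2.88e-05). Zm00001d017279 stood at 8.71, 9.36 and 7.41 CPM in B73 and at 2.11, 1.72 and 1.97 CPM in A632, also without overlap (log2 change 1.98 ± 0.19 SE, edgeR adjusted p = 1.08e-06).

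Zm00001d017274 was 1.31-fold higher in B73 (edgeR adjusted p = 0.0488), a call that ended without B73 replicate 1 or 3 (adjusted p 0.124 and 0.145) and without A632 replicate 1 or 3 (adjusted p 0.0501 and 0.127). For Zm00001d017275 the log2 difference was 0.24 ± 0.12 SE (edgeR adjusted p = 0.103), and the adjusted p was 0.0497 without A632 replicate 2. The share of reads lost to sequence differences between A632 and the B73 reference was not tested.

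The F1 hybrid carried the highest silk level of most copies. Against B73, 7 of 8 were higher and 0 lower (0 lower also by DESeq2 and at an unadjusted p under 0.05), where 22.4% of all genes tested were higher and 20.1% lower. Against A632, 7 were higher and 1 lower, where 23.8% of all genes were higher and 23.4% lower. The 2 comparisons share the F1 libraries. The same 7 copies lay, in every F1 library, above every library of either parent, as did 11.4% of all genes tested, and the exception was Zm00001d051163.

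Zm00001d003016 stood at 1351, 1054 and 1185 CPM in F1 silk, against 78.6, 38.0 and 73.5 CPM in B73 and 278, 211 and 165 CPM in A632. The lowest F1 library was far above the highest parent library. The log2 change was 4.27 ± 0.31 SE over B73 and 2.35 ± 0.29 SE over A632 (edgeR adjusted p = 3.74e-07 and 2.36e-05). The F1 mean was 8.51 times the mean of the parents in CPM.

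Zm00001d017279 stood at 63.6, 40.2 and 50.8 CPM in the F1, 9.88 times the mean of the parents. Its log2 change was 2.64 ± 0.18 SE over B73 and 4.63 ± 0.20 SE over A632 (edgeR adjusted p = 1.62e-07 and 2.13e-09). Zm00001d017276 stood at 52.2, 34.5 and 42.0 CPM, 6.27 times the mean of the parents, with a log2 change of 4.09 ± 0.30 SE over A632 and 1.97 ± 0.27 SE over B73. In both copies the spread among F1 libraries was smaller than the gap to the parents.

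Zm00001d003015 stood at 128, 117 and 123 CPM in the F1, 6.03 times the mean of the parents, with a log2 change of 3.83 ± 0.28 SE over B73 and 1.84 ± 0.26 SE over A632. Zm00001d051161 stood at 104, 91.5 and 72.9 CPM, with a log2 change of 5.16 ± 0.21 SE over B73 (edgeR adjusted p = 1.58e-09) and 1.17 ± 0.17 SE over A632. Its change over B73 was the largest of the 8 copies, and B73 was the parent with the lower level.

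Zm00001d017274 rose to 2770.0 ± 121 CPM in the F1, while B73 had 1222 ± 145 and A632 846 ± 141. Its log2 change over these parents was 1.21 ± 0.16 SE and 1.61 ± 0.16 SE. Zm00001d017275 changed least of the 7, to 276 ± 14.1 CPM, with a log2 change of 0.43 ± 0.12 SE over B73 (edgeR adjusted p = 0.0088, and 0.0518 without F1 replicate 1) and 0.67 ± 0.12 SE over A632. Zm00001d051163 stood at 270.3, 242 and 241 CPM in the F1 and at 217, 362 and 445 CPM in A632, with overlap. It was lower in the F1 than in that parent (log2 change -0.55 ± 0.19 SE, edgeR adjusted p = 0.0255), but the adjusted p was 0.0746 and 0.0606 without F1 replicates 2 and 3, and 0.083 and 0.178 without A632 replicates 2 and 3. Over B73 its difference of 0.36 ± 0.19 SE did not pass the test (edgeR adjusted p = 0.134).

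**Figure D4:**
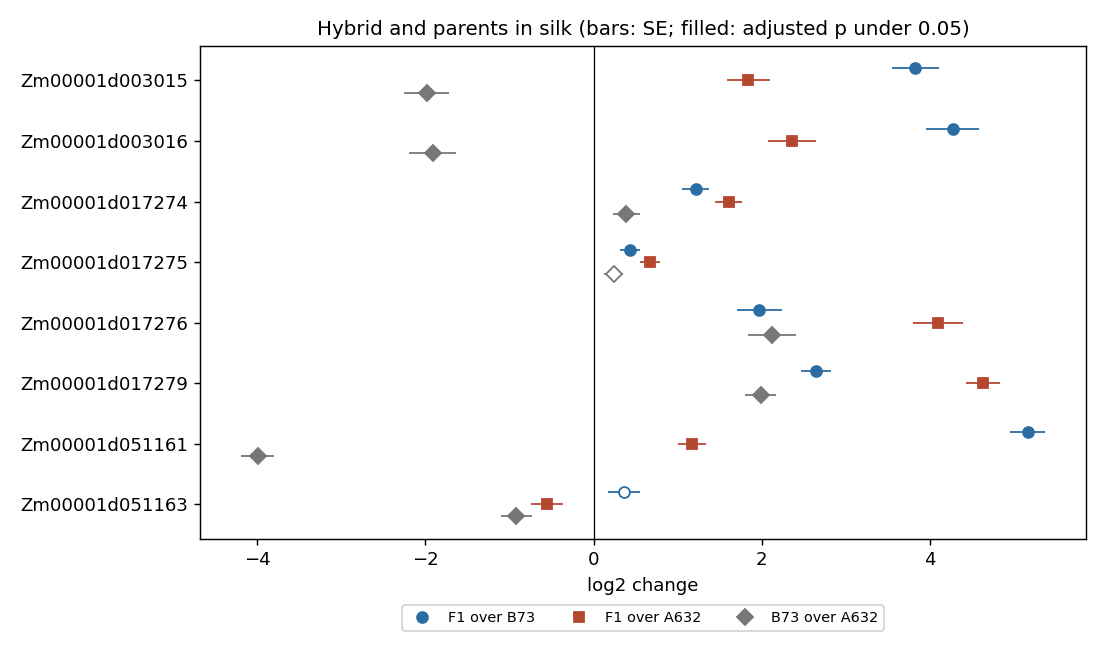
Log2 change of 8 copies in silk for F1 over B73 (circles), F1 over A632 (squares) and B73 over A632 (diamonds), with SE bars. Filled symbols have an edgeR adjusted p under 0.05. For 7 copies both F1 comparisons lie right of 0, whether the copy was higher in B73, as for Zm00001d017279, or in A632, as for Zm00001d051161.

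F1 silk and F1 leaf protoplasts with the empty vector share a genotype but differ in tissue, age and preparation. These, and season, cannot be told apart. Of 8 copies, 3 were higher in silk and 0 lower, where 31.5% and 33.3% of all genes tested were so. An unadjusted p under 0.05 also gave 0 lower. DESeq2, run without the filter on low counts, called 3 higher and 2 lower, where 26.9% and 36.3% of all genes it tested were so. The lower ones were Zm00001d017279 (DESeq2 adjusted p = 0.045) and Zm00001d033286. The latter had few counts and was not among the 8 copies that edgeR tested here. Zm00001d003016 was 377-fold higher in silk (log2 change 8.56 ± 0.47 SE, edgeR adjusted p = 3.58e-05), Zm00001d003015 6.84-fold (log2 change 2.77 ± 0.40 SE, edgeR adjusted p = 0.000913) and Zm00001d051163 2.25-fold (log2 change 1.17 ± 0.28 SE, edgeR adjusted p = 0.0086).

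Empty-vector replicate 3 weighed on this comparison. Without it Zm00001d017274 and Zm00001d051161 were also higher in silk (log2 change 3.35 and 2.40, edgeR adjusted p = 0.00037 and 0.000104). Without empty-vector replicate 2 Zm00001d017279 was lower in silk (log2 change -1.28, edgeR adjusted p = 0.0164).

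The summed level of the 10 copies also differed between groups. It was 1217 ± 219 CPM in P1-rr and 657 ± 50.7 CPM in P1-ww silk, a ratio of 1.85. In pericarp it was 2820.4 ± 218 CPM with P1-rr and 2093 ± 272 CPM with P1-ww, a ratio of 1.35. F1 silk stood at 4801 ± 322 CPM, 2.78 times B73 and 2.93 times A632, which overlapped each other. In protoplasts the sum was 4542, 2183 and 11951 CPM with 35S:P1 and 557, 395 and 2629 CPM with the empty vector. Those groups overlapped, since empty-vector replicate 3 lay above 35S:P1 replicate 2.

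The makeup of the family's counts differed as well. Zm00001d003016 held 4.21 ± 0.0629% of the family's counts in P1-ww silk and 16.4 ± 2.27% in P1-rr silk, and 1.85 ± 0.268% and 22.0 ± 4.05% in P1-ww and P1-rr pericarp. It held 3.60% in B73, 13.3% in A632 and 24.9 ± 1.55% in F1 silk. In silk 4 copies held a larger and 2 a smaller share in every P1-rr library than in every P1-ww library, and in pericarp 2 and 3 did. Shares add up to a fixed total, so a larger share of a copy lowers those of others. No background rate was computed for these counts. Zm00001d017274 held 72.6% in P1-ww silk and 62.3% in P1-rr silk, although its own level was higher with P1-rr. In pericarp the share of Zm00001d017275 was 20.2% with P1-ww and 8.93% with P1-rr, and that of Zm00001d051163 was 15.6% and 6.49%.

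**Figure D5:**
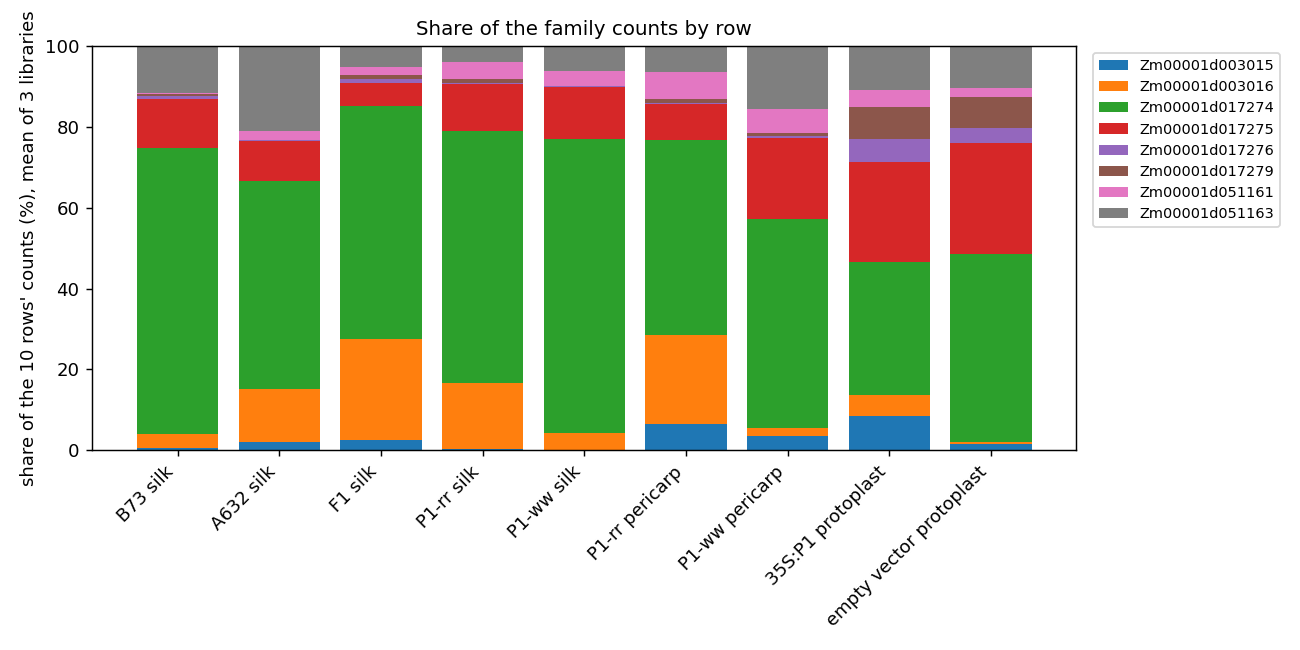
Share of the summed counts of the 10 copies held by each of 8 copies (%, mean of 3 libraries, counts not divided by gene length) in the 9 groups. The part of Zm00001d003016 grows from 4.21% in P1-ww silk to 16.4% in P1-rr silk and from 1.85% to 22.0% in pericarp, and is 24.9% in F1 silk.

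Across the 9 group means of log2(CPM + 1) the most alike pair of copies was Zm00001d017276 and Zm00001d017279, with a Pearson r of 0.95, and the least alike was Zm00001d003016 and Zm00001d017279, with an r of 0.13. Zm00001d003015 and Zm00001d003016 had an r of 0.54. These values describe 9 means that share tissues and are not independent, so they carry no test. Among 22971 other genes with a mean of at least 1 CPM, those most like Zm00001d017274 by the same measure were Zm00001d036801 (r = 0.96) and Zm00001d048627 (r = 0.95). Zm00001d036801 ran from 0.294 CPM in empty-vector protoplasts to 13.4 CPM in F1 silk, and Zm00001d048627 from 45.4 to 494 CPM between the same groups.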

How the data were processed

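The authors deposited 1 table of raw read counts per gene, with no normalization, for 39005 genes and 27 libraries. Reads were single, 50 nt long, and libraries were sequenced in pools of 9, per the labels' protocols. Which pool held which library is not stated. The submitters' processing notes name bcl2fastq 2.20.0, FastQC, Trimmomatic, Bowtie2 2.3.4.1, HISAT2 2.0.4 and B73 RefGen_v4. How reads were counted, including strand and reads that align more than once, is not given in the sources used here. None of the 16 peak lists of the series was used, since gene positions of that build were not at hand. A reference table of another maize build matched 0 of the identifiers, so no list of other pathway genes was made and no coordinates are printed.

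Tests ran in edgeR 4.0.16 under R 4.3.3, with TMM factors, the filterByExpr filter and a two-sided quasi-likelihood F test on group means. Each test was fitted on all genes, with Benjamini-Hochberg adjustment over all genes tested and a threshold of 0.05. Fits used the 6 protoplast, the 15 silk or the 6 pericarp libraries, the 12 P1-rr and P1-ww libraries for the comparisons across tissues, and the 6 F1 silk and empty-vector libraries. SEs come from the log2 change and its F statistic. The p-values weigh the difference between groups against the spread between the sampled replicates. That spread is estimated over all libraries in the fit and moderated across genes. With 3 against 3 libraries an exact permutation test of a single value cannot go below 0.1. Alternatives were the size factors and, separately, the Wald test of DESeq2 1.42.0, no filter, other libraries in the fit, the replicate number as a block, and leaving out each library. Leaving out each same-numbered pair under the block was added after seeing the data.

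The pairing check for protoplasts took each library's log2 CPM minus its group mean. Equal numbers correlated at r 0.54, 0.66 and 0.82 and unequal ones at 0.29 or less. Deviations from a group mean sum to 0 over its 3 libraries, so these values are not independent and cannot establish a pairing. The labels do not state a pairing, so the block was taken from these data. In the other comparisons equal numbers did not stand out in this way. Between replicates, chi-square over its degrees of freedom was 7.40 to 666. Hybrids are named differently in the growth text and in the sample fields, and the latter were used. Pericarp samples have kernels as their tissue field.

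The copies, comparisons and tests were chosen with earlier results of these data known. Full values go to the called copies of each comparison, at most to the 4 with the largest change, and otherwise to the 2 with the smallest p. Beyond that rule, Zm00001d017274, the copy with the most counts, Zm00001d033286, copies whose call depended on 1 library, and F1 values of the other copies were given after their values were seen.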

Additional observations from a re-analysis of the deposited data

Results flagged for a closer look

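For 5 copies the test of the difference itself found that the P1-rr effect was not the same in pericarp and silk. The difference in log2 effect, pericarp minus silk, was 1.14 for Zm00001d003016, -1.48 for Zm00001d017275, -3.42 for Zm00001d017276, -2.80 for Zm00001d017279 and -1.06 for Zm00001d051163. For Zm00001d017276 the P1-rr effect was a log2 of 3.42 in silk and -0.00 in pericarp, and for Zm00001d017279 it was 3.39 and 0.59. For Zm00001d003016 it was 2.81 and 3.95, and the call of its difference was the least stable of the 5. It held in 3 of 12 fits without 1 library and was lost with DESeq2 size factors (adjusted p 0.0587), the replicate block (0.0723) and all 27 libraries in the fit (0.607). The call for Zm00001d051163 was lost with all 27 libraries (0.225).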

How the results depend on the processing

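Counts of copies called differed with the choice of fit as follows, and counts under alternatives that are not named equalled those of the report. For 35S:P1 the 0 copies called higher became 3 with no filter, 8 with DESeq2, 9 with the replicate block, 8 with all 27 libraries in the fit, and 6, 9 and 9 with the replicate block without pair 1, 2 and 3. Without 1 library they were 0 to 3. The counts of 8 and 9 include Zm00001d033286, which was tested only through its 35S:P1 libraries. For P1-rr in silk the 7 higher copies became 4 with all 27 libraries. They were 6 to 7 without 1 library. For P1-rr in pericarp the 2 higher became 1 with the block and 1 with all 27 libraries, and the 2 lower became 1 with the block. Without 1 library they were 1 to 2 higher and 0 to 2 lower. For the difference between tissues the 1 more positive copy became 0 with DESeq2 size factors, 0 with the block and 0 with all 27 libraries. The 4 more negative ones became 3 with all 27 libraries (Zm00001d051163 lost, adjusted p 0.225) and 5 with DESeq2 (Zm00001d003015 gained, 0.0336). Without 1 library they were 0 to 1 and 4 to 5. For pericarp against silk in P1-ww the 7 higher became 6 with all 27 libraries (Zm00001d017274 lost, 0.12) and 8 with only the compared libraries, and were 7 without 1 library. For F1 against B73 the 7 higher became 5 with all 27 libraries (Zm00001d017274 and Zm00001d017275 lost, 0.261 and 0.306) and 8 with only the compared libraries, and were 6 to 7 without 1 library. For F1 against A632 the 7 higher became 4 with all 27 libraries, and the 1 lower became 0 with all 27 and 0 with only the compared libraries, and was 0 to 1 without 1 library. For F1 silk against empty-vector protoplasts the 3 higher became 5 with the block and 5 with all 27 libraries, and the 0 lower became 1 with no filter, 2 with DESeq2 and 2 with all 27 libraries. Without 1 library they were 3 to 5 and 0 to 1. The lower counts with no filter, DESeq2 and all 27 libraries each include Zm00001d033286, which the main fit did not test there. For B73 against A632 the 3 higher became 2 with the block, with all 27 libraries and with only the compared libraries (Zm00001d017274 lost, 0.0528, 0.726 and 0.113). Without 1 library they were 2 to 4, and the lower ones 4. The cause of these changes was not tested.

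In that comparison of F1 silk with protoplasts the median log2 change of all genes was 0.00. It was -0.15 with DESeq2 size factors, -0.14 with all 27 libraries, -0.27 with no filter, -0.48 with the DESeq2 Wald test and 0.11 with the block. For Zm00001d017276 in pericarp the log2 difference was 0.0032 with no filter and ran from -0.034 to 0.059 without 1 library, positive without P1-rr replicate 2 (0.04), P1-rr replicate 3 (0.0015) or P1-ww replicate 3. Of 486 log2 changes of single copies without 1 library, 32 lost and 11 gained a call. Outside protoplasts libraries of equal number did not deviate together as they did in protoplasts. There the block also ended the calls of Zm00001d003015 and Zm00001d017275 in pericarp (adjusted p 0.111 and 0.0551), of Zm00001d003016 between tissues (0.0723) and of Zm00001d017274 between B73 and A632 (0.0528). Depth limits Zm00001d033286 and Zm00001d051164, and also Zm00001d017276 in P1-ww silk, where it had 19 counts over the group.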
